A study of Homo sapiens with 18 samples.

Results

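The E2F transcription factors and the retinoblastoma (RB) proteins that bind them were followed in EA.hy926 cells in which ELMO1 had been knocked down. The gene set held E2F1 to E2F8, RB1 and RBL1, taken from the gene count matrix by symbol, and made 10 of the 62754 genes listed. All 10 passed the filter on low counts and were among the 15167 genes tested. EA.hy926 is a human endothelial line made by fusing umbilical vein endothelial cells with the lung carcinoma line A549, and all groups were grown from it. Mock cells received transfection reagent without siRNA, siNT cells a non-targeting siRNA at 10 nM and siELMO1 cells a pool of siRNAs against ELMO1 at 10 nM. Each was sequenced without poly(I:C), a double-stranded RNA that stimulates TLR3, 48 h after transfection (0 h), and 24 h after addition of poly(I:C) at 1 µg/ml, which is 72 h after transfection (24 h). The study's methods describe an overnight culture in low serum before stimulation. The 6 groups had 3 libraries each, 18 in all.

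E2F proteins bind DNA at the promoters of genes needed for DNA replication, most of them as partners of a DP protein. E2F1, E2F2 and E2F3 are classed as activators and E2F4 to E2F8 as repressors: E2F4 and E2F5 act with the pocket proteins p107 (RBL1) and p130 (RBL2), E2F6 acts with a Polycomb complex, and E2F7 and E2F8 repress without a DP partner or an RB protein. RB1 holds the activators in check in G1 until cyclin-dependent kinases phosphorylate it. Several members are E2F target genes themselves, and their RNA is known to be low in resting cells and to rise as cells enter S phase.

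RefSeq promoter entries on GRCh38.p14 were used for 8 of the 10 genes. E2F8 had no entry and E2F5 was left out of the search, so the motif counts cover neither gene. The RB1 entry lies at an internal start site over 1000 bases from the gene's start and was left out, and each entry of the other 7 was searched from 250 bases before to 50 bases after the start site, on both strands, for the letters TTTGGCGC or TTTCGCGC, an E2F-type motif. Such a motif stood in 403 of all 35116 promoters (1.15%) and in those of 3 of the 7 genes, E2F1, E2F2 and RBL1. A shorter form, either of the same motifs without its first T or the letters TTCCCGC or else TTGCCGC, which overlaps the first, stood in 13.0% of all promoters and in 6 of the 7, adding E2F3, E2F6 and E2F7. E2F3 had its matches in the entry at its upstream start, which is the one printed. Its other entry, near the downstream start, had no match of either form. The 80 bases before the start site are printed 5′ to 3′ on the gene's strand, with matches of either motif in capitals, for the 3 promoters with the longer motif, for E2F3, whose level changed little, and for E2F4, which had no match. In E2F1 the longer match began 20 bases before the start site, in E2F2 42 bases before it, and RBL1 had a pair of matches that began 26 and 16 bases before it.
E2F1, chr20:33686386-33686465, minus strand: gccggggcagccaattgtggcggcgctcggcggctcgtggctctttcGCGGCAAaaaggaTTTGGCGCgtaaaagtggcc
E2F2, chr1:23531234-23531313, minus strand: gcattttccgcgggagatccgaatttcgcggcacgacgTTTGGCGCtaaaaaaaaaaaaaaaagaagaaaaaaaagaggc
RBL1, chr20:37095998-37096077, minus strand: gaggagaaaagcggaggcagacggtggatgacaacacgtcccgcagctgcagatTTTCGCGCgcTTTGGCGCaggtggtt
E2F3, chr6:20401799-20401878, plus strand: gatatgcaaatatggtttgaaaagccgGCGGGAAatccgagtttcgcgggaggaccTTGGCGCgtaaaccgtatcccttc
E2F4, chr16:67192075-67192154, plus strand: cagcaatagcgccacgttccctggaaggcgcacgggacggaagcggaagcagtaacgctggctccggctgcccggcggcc

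Each library held between 40374756 and 73850946 estimated counts. Levels are given as CPM, counts scaled to the same library total after TMM normalization. Differences are log2 fold changes from edgeR's quasi-likelihood test with their standard error (SE) and the p adjusted by the Benjamini-Hochberg method over the 15167 genes, and a gene was called at an adjusted p under 0.05. With 3 libraries against 3, an exact permutation test could not go below 0.10, so the p-values are those of the model, and since the replicates are called biological in the study's methods but no source says that they were separate cultures, they may measure the spread between these libraries only. ELMO1 was at 0.299, 0.301 and 0.419 CPM in siELMO1 cells at 0 h against 2.66 to 3.32 CPM in siNT cells, and at 0.155 to 0.360 against 2.98 to 3.59 CPM at 24 h. The siELMO1 group at 0 h was uneven: mitochondrial genes took 4.02% and 3.95% of the counts in replicates 2 and 3 and 1.86% in replicate 1, while the other groups ranged from 1.31% to 2.42%. Of 10 endothelial markers 9 were above 1 CPM in every library, CLDN5 being at 0 to 0.210 CPM. KRT8 and KRT18 were expressed, CDH1 was at 0, and PTPRC and the fibroblast markers stayed at or below 0.496 CPM. Summed endothelial markers were at 2713 to 2962 CPM in siELMO1 cells at 0 h and at 1921 to 2041 CPM in the controls, summed epithelial markers, nearly all KRT8 and KRT18, at 976 to 1086 CPM against 765 to 817 CPM, and their part in the results was not tested. In bulk RNA, fewer cells in a phase of the cycle and less RNA per cell cannot be told apart.

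**Figure D1:**
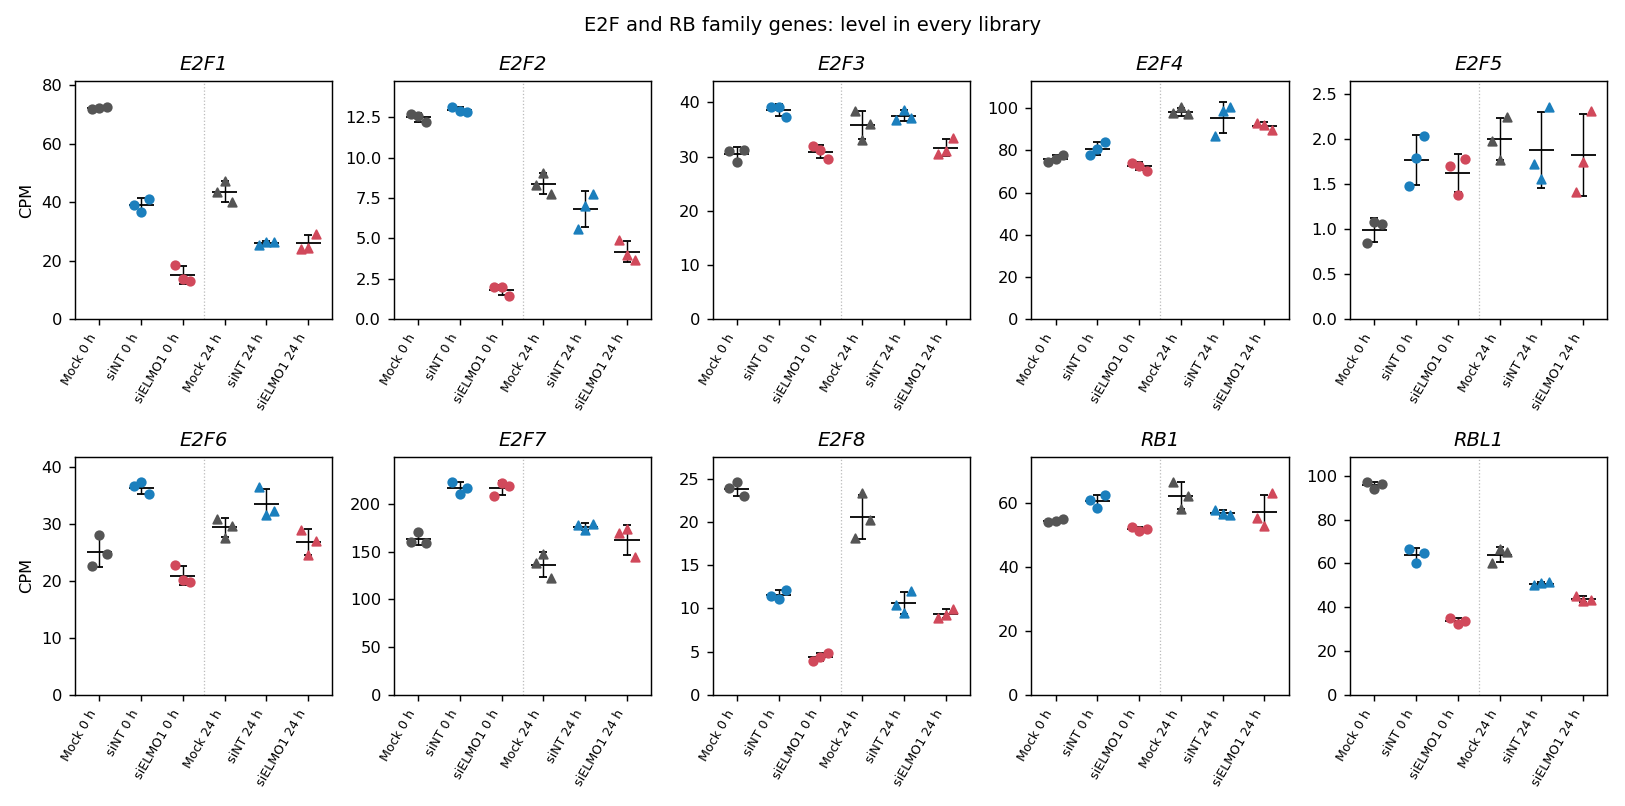
Level of each gene in CPM (linear axis from 0, one scale per panel) in the 18 libraries; each point is 1 library, circles 0 h and triangles 24 h, the bar the group mean and the whisker 1 SD (n = 3). Group means were lowest in siELMO1 cells at 0 h for E2F1, E2F2, E2F8 and RBL1, and also for E2F4, E2F6 and RB1. In those cells E2F1 lay between 12.8 and 18.6 CPM and E2F7 between 209 and 222 CPM.

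Per transcript length, with all transcripts of a gene summed, the most abundant genes of the set were a repressor pair. In Mock cells at 0 h E2F4 was at 87.8 ± 2.93 TPM (a length-scaled share of all transcripts, computed from the transcript matrix, SD, n = 3), E2F7 at 73.2 ± 4.62 TPM and E2F1 at 65.6 ± 0.633 TPM. RBL1 (41.5 TPM), RB1 (28.0 TPM), E2F6 (25.8 TPM), E2F8 (16.2 TPM) and E2F3 (15.7 TPM) followed, with E2F2 at 5.94 TPM and E2F5 at 0.669 TPM. These sums include transcripts not classed as coding. In Mock cells at 0 h the main coding transcript of E2F4 held an estimated 50.7 ± 26.3% of its TPM. Retained-intron transcripts held 35.8% and 9.71%, so the lead of E2F4 need not hold for coding RNA. For E2F6 the largest share, 35.7%, was a transcript of the nonsense-mediated decay class. E2F5 was measured on 55 to 136 counts per library, so its ratios are the least certain of the set. In siELMO1 cells at 0 h E2F7 (93.2 ± 3.31 TPM) and E2F4 (80.9 ± 2.02 TPM) led, RB1 came next at 25.5 TPM, and E2F1 had dropped to the seventh place of the 10 at 13.0 ± 3.22 TPM. E2F8 was at 2.84 TPM and E2F2 at 0.843 TPM in the same cells.

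Knockdown of ELMO1 lowered 2 of the 3 activators by a wide margin and left E2F3 near the controls. E2F1, which drives entry into S phase, measured 71.9, 72.1 and 72.7 CPM in Mock cells, 39.0, 36.5 and 41.2 CPM in siNT cells and 18.6, 13.6 and 12.8 CPM in siELMO1 cells at 0 h. The 3 groups did not overlap, and siNT cells lay between Mock and siELMO1 cells. E2F1 was 2.58-fold lower in siELMO1 than in siNT cells (log2 -1.37, SE 0.11, adjusted p = 5.8e-09, edgeR) and 4.78-fold lower than in Mock cells (log2 -2.26, SE 0.11, adjusted p = 1.5e-11). With siELMO1 at 0 h represented by replicate 1 alone, the E2F1 differences were -1.06 and -2.0. The study named E2F1 on these same libraries, so its direction here is not independent evidence.

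E2F2, the activator with the lowest level, showed the largest difference of the set. It measured 12.7, 12.6 and 12.2 CPM in Mock cells, 13.2, 12.9 and 12.8 CPM in siNT cells and 1.97, 1.98 and 1.42 CPM in siELMO1 cells at 0 h. Both controls lay within 1 CPM of each other and siELMO1 cells far below them. The study named E2F2 too on these libraries. The difference was 7.21-fold against siNT cells (log2 -2.85, SE 0.15, adjusted p = 1.5e-11, edgeR) and 6.95-fold against Mock cells (log2 -2.80, SE 0.15, adjusted p = 3.5e-11). E2F3, the third activator, measured 31.0, 28.9 and 31.3 CPM in Mock cells, 39.1, 39.2 and 37.3 CPM in siNT cells and 32.0, 31.2 and 29.5 CPM in siELMO1 cells. It was 1.25-fold lower than in siNT cells (log2 -0.32, adjusted p = 1.5e-04, edgeR), while against Mock cells the libraries overlapped and the log2 difference was 0.025 (95% interval -0.091 to 0.14, adjusted p = 0.758).

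The repressors split. E2F8 fell with the activators and E2F7, its closest relative, did not. E2F8 measured 24.0, 24.6 and 23.0 CPM in Mock cells, 11.4, 11.1 and 12.1 CPM in siNT cells and 3.96, 4.35 and 4.87 CPM in siELMO1 cells at 0 h, again with siNT cells between the other groups. It was 2.63-fold lower in siELMO1 than in siNT cells (log2 -1.40, SE 0.11, adjusted p = 2.8e-09, edgeR) and 5.44-fold lower than in Mock cells (log2 -2.44, SE 0.11, adjusted p = 3.0e-12). E2F7 measured 160, 171 and 159 CPM in Mock cells, 223, 210 and 217 CPM in siNT cells and 209, 222 and 220 CPM in siELMO1 cells. Both siRNA groups overlapped and lay above Mock cells: E2F7 was 1.33-fold higher in siELMO1 than in Mock cells (log2 0.41, adjusted p = 7.4e-05, edgeR), and against siNT cells its log2 difference was 0.00098 (95% interval -0.13 to 0.13, adjusted p = 0.993). The log2 difference between E2F7 and E2F8 levels was 2.77 in Mock, 4.22 in siNT and 5.60 in siELMO1 cells at 0 h, with ranges that did not overlap.

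E2F6, the Polycomb-linked repressor, measured 22.6, 28.0 and 24.6 CPM in Mock cells, 36.6, 37.3 and 35.2 CPM in siNT cells and 22.7, 20.1 and 19.8 CPM in siELMO1 cells at 0 h. It was 1.74-fold lower than in siNT cells (log2 -0.80, SE 0.086, adjusted p = 2.7e-07, edgeR). Against Mock cells its libraries overlapped at a log2 difference of -0.26 (adjusted p = 0.0163), and the call was lost without Mock replicate 2 (adjusted p = 0.0666), siELMO1 replicate 2 (0.0572) or siELMO1 replicate 3 (0.0681). E2F4, the most abundant pocket-protein partner, measured 74.6, 75.7 and 78.0 CPM in Mock cells, 77.6, 80.9 and 84.0 CPM in siNT cells and 74.2, 72.8 and 70.4 CPM in siELMO1 cells, and its largest difference in either comparison was log2 -0.16 against siNT cells (adjusted p = 0.0124, edgeR). That call was lost without siNT replicate 3 (adjusted p = 0.0626) or siELMO1 replicate 3 (adjusted p = 0.0510). E2F5 measured 0.841, 1.08 and 1.06 CPM in Mock cells, 1.48, 1.79 and 2.04 CPM in siNT cells and 1.70, 1.38 and 1.78 CPM in siELMO1 cells. Its log2 difference was 0.70 against Mock (SE 0.23, adjusted p = 0.0177, edgeR), a call lost without Mock replicate 1 (adjusted p = 0.0922) or siELMO1 replicate 3 (adjusted p = 0.0579), and -0.12 against siNT cells (95% interval -0.57 to 0.33).

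Of the pocket proteins, RBL1 fell while RB1 moved little. RBL1 measured 97.1, 94.3 and 96.3 CPM in Mock cells, 66.7, 60.3 and 64.9 CPM in siNT cells and 35.2, 32.1 and 33.7 CPM in siELMO1 cells at 0 h, with no overlap between groups. It was 1.90-fold lower in siELMO1 than in siNT cells (log2 -0.92, SE 0.052, adjusted p = 5.5e-11, edgeR) and 2.84-fold lower than in Mock cells (log2 -1.51, SE 0.053, adjusted p = 2.2e-13). RB1, the founding member of the family, measured 54.2, 54.3 and 55.0 CPM in Mock cells, 61.1, 58.7 and 62.5 CPM in siNT cells and 52.7, 51.4 and 52.0 CPM in siELMO1 cells. Its log2 difference was -0.22 against siNT (adjusted p = 0.00349, edgeR) and -0.067 against Mock cells (95% interval -0.18 to 0.051, adjusted p = 0.380). RBL2 (p130), the pocket protein known to gather with E2F4 in resting cells and no member of the set, moved the other way: it measured 58.3, 55.9 and 59.3 CPM in siNT and 82.7, 84.3 and 83.5 CPM in siELMO1 cells, 1.44-fold higher (log2 0.53, adjusted p = 2.3e-08), but was at 79.9, 81.7 and 83.2 CPM in Mock cells. RBL2 minus RBL1 was -0.23 on the log2(CPM + 0.1) scale in Mock, -0.14 in siNT and 1.31 in siELMO1 cells. RB1, RBL1, RBL2, E2F3, E2F5 and E2F8 overlap genes on the other strand, the libraries were stranded, and whether counting used the strand is not stated.

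**Figure D2:**
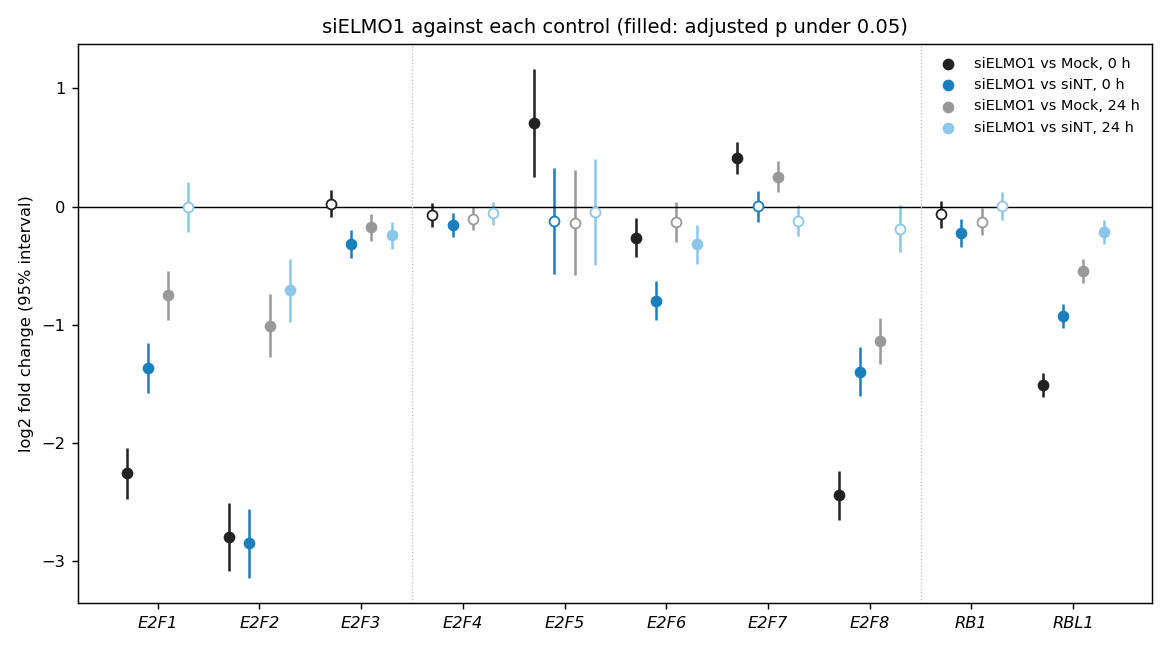
Log2 fold change of siELMO1 against Mock and against siNT cells at 0 h and 24 h (y axis) for each gene (x axis). Points are edgeR estimates, filled where the adjusted p is under 0.05. Lines are 95% intervals from a normal quantile of the SE, and dotted lines part activators, repressors and RB genes. At 0 h E2F1, E2F2, E2F8 and RBL1 lay below -0.9 against both controls, and at 24 h the same 4 genes lay nearer to 0, E2F1 at -0.0068 against siNT.

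Counted over the set at 0 h, 8 of 10 genes were lower and 0 higher in siELMO1 than in siNT cells, where 31.3% of all genes tested were called lower and 31.3% higher. Against Mock cells 5 were lower and 2 (E2F5 and E2F7) higher, with 22.4% of all genes lower and 27.9% higher. With a fold change over 2 as well, 3 genes were lower than in siNT cells (6.22% of all genes lower, 8.38% higher) and 4 lower than in Mock cells (4.5% lower, 3.29% higher), and none was higher. Of the activators 3 of 3 were lower than in siNT cells and 2 of 3 lower than in Mock cells. Among the 5 repressors 3 were lower and 0 higher than in siNT cells, and 2 lower and 2 higher than in Mock cells. With siELMO1 at 0 h represented by replicate 1 alone, 6 genes were called against siNT cells (E2F4 and RB1 lost, at adjusted p = 0.207 and 0.0770 in edgeR) and 5 against Mock cells (E2F5 and E2F6 lost, at 0.0868 and 0.252), and without replicate 1 the counts were 8 and 7. Both comparisons share the siELMO1 libraries.

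The mean log2(CPM + 0.1) of the 3 activators minus that of the 5 repressors gives the balance of both classes in each library. It was 0.33 ± 0.096 (SD, n = 3) in Mock, 0.011 ± 0.060 in siNT and -1.0 ± 0.20 in siELMO1 cells at 0 h, with ranges that did not overlap. At 24 h it was -0.24 in Mock, -0.46 in siNT and -0.63 in siELMO1 cells, where the siELMO1 range of -0.67 to -0.57 lay just below the siNT range of -0.55 to -0.33. The siELMO1 and siNT ranges at 24 h overlapped without E2F3, against E2F4 and E2F5 alone and against E2F7 and E2F8 alone. Against E2F4 to E2F6 they stayed apart, at -0.22 to -0.052 and -0.042 to 0.17. The class mean covers unlike genes. Against E2F7 and E2F8 alone the balance was -1.05 in Mock and -1.71 in siELMO1 cells at 0 h, and against E2F4 and E2F5 alone 1.73 and -0.23. No test was made of this score, since its members were chosen.

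**Figure D3:**
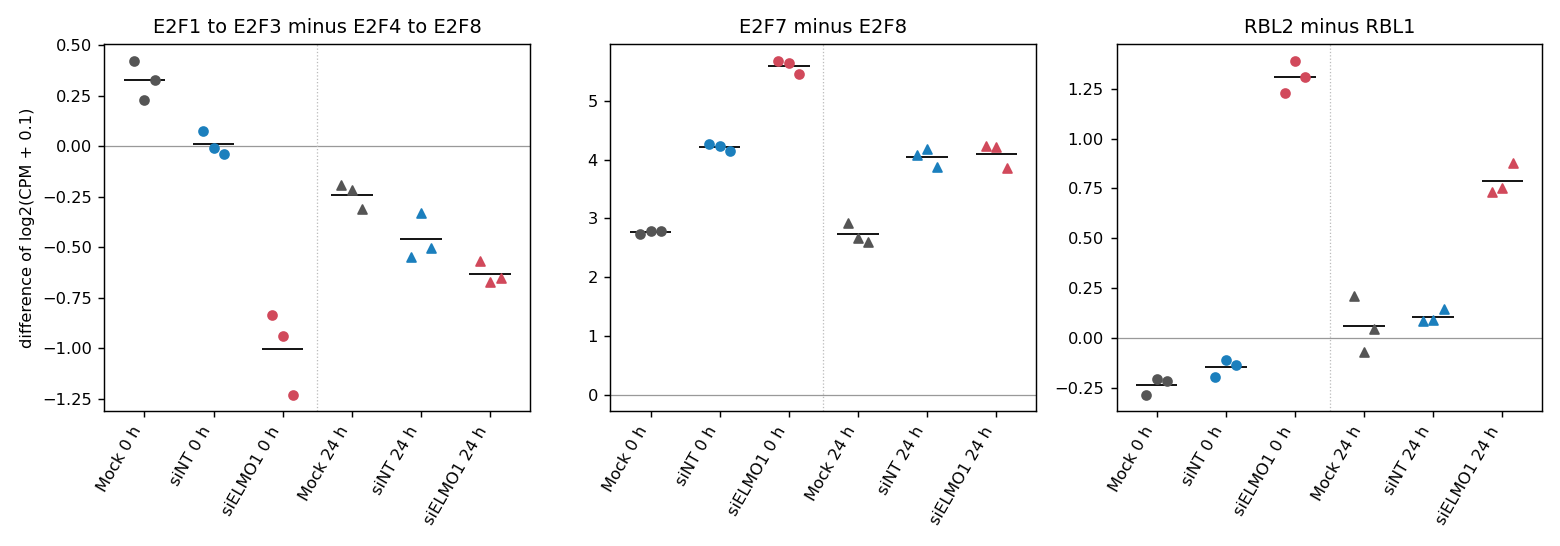
Difference of log2(CPM + 0.1) in each library (y axis, one panel per difference, own scale) for the mean of E2F1 to E2F3 minus the mean of E2F4 to E2F8, for E2F7 minus E2F8 and for RBL2 minus RBL1; points are libraries, circles 0 h, triangles 24 h, bars group means. In siELMO1 cells at 0 h the 3 libraries lay outside all others in each panel, at a mean of -1.0, 5.60 and 1.31.

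Several genes of the set also differed between the controls, though the counts of lower genes stayed near the share among all genes. Between siNT and Mock cells at 0 h 3 genes were lower (24% of all genes tested) and 5 higher (27.6%). E2F8 was 2.07-fold lower (log2 -1.05, adjusted p = 1.1e-07, edgeR), E2F1 1.86-fold lower (log2 -0.89) and RBL1 1.5-fold lower (log2 -0.58). E2F3 (log2 0.34), E2F5 (0.83), E2F6 (0.53), E2F7 (0.41) and RB1 (0.16) were higher, the call on RB1 (adjusted p = 0.0358) being lost when any 1 of 6 libraries was left out, Mock replicates 1, 2 and 3 and siNT replicates 1 and 3 at 0 h and Mock replicate 1 at 24 h, with adjusted p from 0.0813 to 0.188. E2F2, unlike E2F1, was not called lower in siNT cells: its log2 difference was 0.053 (95% interval -0.20 to 0.31, adjusted p = 0.760). At 24 h 3 genes were lower in siNT than in Mock cells (24.9%), E2F8 at log2 -0.95, E2F1 at -0.74 and RBL1 at -0.33, and 1 was higher (25.2%), E2F7 at 0.37.

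At 24 h E2F1, E2F2, E2F8 and RBL1 lay nearer to the controls in siELMO1 cells than at 0 h. The study describes extensive death of siNT cells after poly(I:C), with much less in Mock and knockdown cells. The part of cell death in the siNT levels at 24 h, and in every comparison that uses them, was not tested. E2F1 measured 25.3, 26.2 and 26.4 CPM in siNT and 23.9, 24.5 and 29.3 CPM in siELMO1 cells, which overlapped (log2 -0.0068, 95% interval -0.22 to 0.20, adjusted p = 0.965, edgeR), against 43.5, 47.1 and 39.9 CPM in Mock cells. E2F2 was still the lowest relative to siNT cells, at 4.88, 3.95 and 3.64 CPM against 5.60, 7.02 and 7.77 CPM (log2 -0.71, adjusted p = 3.1e-04). E2F8 measured 8.90, 9.23 and 9.91 CPM against 10.4, 9.49 and 12.0 CPM in siNT cells, with overlap (log2 -0.19, 95% interval -0.39 to 0.010), and 18.2, 23.3 and 20.2 CPM in Mock cells. Both siRNA groups lay below Mock cells for E2F1 and E2F8. Against siNT cells 4 of 10 genes were lower (26.5% of all genes; 2.48% with a fold over 2) and 0 higher (26%; 4.83%), namely E2F2, E2F3 (log2 -0.25), E2F6 (-0.32) and RBL1 (-0.21), and none passed a fold of 2. Against Mock cells 5 were lower (22%; 1.8% with a fold over 2) and 1, E2F7 at log2 0.25, higher (21.6%; 3.29%), with E2F8 (log2 -1.14) and E2F2 (-1.01) past a fold of 2. The E2F3 call against Mock cells (log2 -0.18, adjusted p = 0.0221) was lost when any 1 of 4 libraries was left out, Mock replicates 1 and 3 and siELMO1 replicates 1 and 2 at 24 h, with adjusted p from 0.0539 to 0.109. Leaving out Mock replicate 2 or siELMO1 replicate 3 at 24 h brought RB1 under the threshold against Mock cells (log2 -0.18 and -0.20), and leaving out siNT replicate 1 at 24 h brought E2F4 under it against siNT cells (log2 -0.12).

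Poly(I:C) went with lower E2F1 and E2F2 in both controls and higher E2F1 and E2F2 in siELMO1 cells, while the third activator, E2F3, was called only in Mock cells, as higher. Time after transfection changes with poly(I:C) in this design, so stimulation and time cannot be told apart. In Mock cells E2F1 was 1.66-fold lower at 24 h than at 0 h (log2 -0.73, adjusted p = 9.9e-06, edgeR), E2F2 1.49-fold lower (log2 -0.57) and RBL1 1.5-fold lower (log2 -0.58). In siNT cells the log2 differences of these genes were -0.58, -0.93 and -0.33, all called. In siELMO1 cells they were the opposite: E2F1 was 1.71-fold higher (log2 0.78, SE 0.11, adjusted p = 1.1e-05), E2F2 2.32-fold higher (log2 1.21, SE 0.15, adjusted p = 1.6e-06), E2F8 2.13-fold higher (log2 1.09, SE 0.11, adjusted p = 1.1e-07) and RBL1 1.30-fold higher (log2 0.38, adjusted p = 8.5e-06). With siELMO1 at 0 h represented by replicate 1 alone, E2F1 was at log2 0.47 (adjusted p = 0.00287), E2F2 at 1.07, E2F8 at 1.23 and E2F6 no longer called (adjusted p = 0.122). E2F8 was not called in Mock (log2 -0.21, adjusted p = 0.0675) or siNT cells (log2 -0.12, adjusted p = 0.348). The call in Mock cells was gained in DESeq2 (adjusted p = 0.0491), in limma-voom (0.0275), under library totals (log2 -0.34) and with upper-quartile factors (log2 -0.28), and also without Mock replicate 3 at 0 h (log2 -0.27) or Mock replicate 2 at 24 h (log2 -0.31), and without siNT replicate 3 at 24 h, which shares only the estimate of spread, at an adjusted p of 0.0489.

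The repressors E2F4 and E2F7 moved in opposite directions, each keeping its own direction in all 3 transfections. E2F4 was higher at 24 h, by log2 0.37 in Mock, 0.24 in siNT and 0.34 in siELMO1 cells, and E2F7 lower, by log2 -0.26, -0.30 and -0.42, each with an adjusted p under 0.05 in edgeR. E2F4 measured 97.6, 101 and 97.1 CPM in Mock and 93.1, 92.2 and 89.8 CPM in siELMO1 cells at 24 h, above every library of its own group at 0 h. E2F5, with few counts, ranged from 0.841 to 1.08 CPM at 0 h and from 1.77 to 2.24 CPM at 24 h in Mock cells (log2 1.00, SE 0.23, adjusted p = 0.00116), against log2 0.088 in siNT and 0.16 in siELMO1 cells, neither called. E2F6 was higher by log2 0.36 in siELMO1 cells (adjusted p = 0.00192) and 0.22 in Mock cells, where the call (adjusted p = 0.0298) was lost without Mock replicate 1 (log2 0.12) or 3 at 0 h or Mock replicate 1 or 3 at 24 h. In Mock cells E2F3 (log2 0.24) and RB1 (log2 0.20) were also higher. The E2F3 call was lost without Mock replicate 1 at 24 h (log2 0.15, adjusted p = 0.0503), and the RB1 call without any 1 Mock replicate at 0 h or without Mock replicate 1 at 24 h (log2 0.11). Under scaling by library totals the median of all genes in this comparison shifted by -0.12, and E2F3 was then at log2 0.11, E2F6 at 0.10 and RB1 at 0.074, with none called. RB1 in siELMO1 cells was at log2 0.13 (adjusted p = 0.0669), and was called without siELMO1 replicate 2 at 24 h (log2 0.19).

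**Figure D4:**
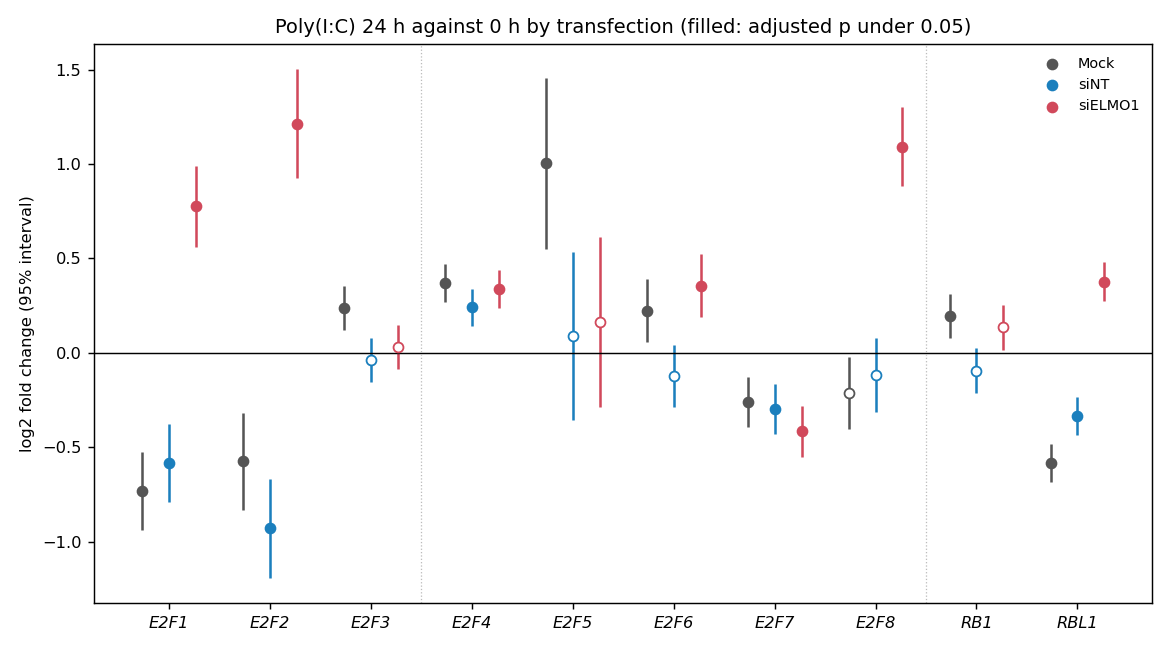
Log2 fold change of poly(I:C) 24 h against 0 h (y axis) for each gene (x axis) in Mock, siNT and siELMO1 cells. Points are edgeR estimates, filled where the adjusted p is under 0.05, and lines are 95% intervals from a normal quantile of the SE. E2F1, E2F2 and RBL1 lay below 0 in Mock and siNT and above 0 in siELMO1 cells, as did E2F8, which was not called in Mock or siNT cells. E2F4 lay above 0 and E2F7 below 0 in all 3.

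In counts, poly(I:C) went with 4 lower (29.6% of all genes tested; 5.92% with a fold over 2) and 5 higher genes (30.7%; 8.6%) in Mock cells, 4 lower (25.2%; 2.97%) and 1 higher (28.6%; 6.45%) in siNT cells, and 1 lower (26.9%; 3.68%) and 6 higher (28%; 7.71%) in siELMO1 cells. A fold over 2 was passed by E2F5 in Mock and by E2F2 and E2F8 in siELMO1 cells. The difference of the responses was tested as an interaction. Between siELMO1 and siNT cells it was called for 6 of 10 genes (34.5% of all genes in either direction), all with a positive sign, and between siELMO1 and Mock cells for 4 of 10 (28.3%), also all positive. It was called for 5 of 10 between siNT and Mock cells (31%), 1 positive and 4 negative, but for 1 of 10 under library totals, with no filter on low counts or without Mock replicate 1 at 24 h, and for 3 of 10 without any 1 of 6 other libraries (Mock replicates 1, 2 and 3 and siNT replicate 2 at 0 h, Mock replicate 3 and siNT replicate 2 at 24 h). E2F2 had the largest values, 2.14 (SE 0.20, adjusted p = 1.8e-07, edgeR) against siNT and 1.79 (SE 0.20, adjusted p = 2.8e-06) against Mock cells. The interactions share libraries with each other and with the comparisons at 0 h.

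The order of the 6 groups showed which genes shared this course. For E2F1 the order from high to low was Mock 0 h (72.2 ± 0.445 CPM), Mock 24 h (43.5), siNT 0 h (38.9), siNT 24 h (26.0), siELMO1 24 h (25.9) and siELMO1 0 h (15.0 ± 3.12 CPM). The ranges of Mock 24 h and siNT 0 h overlapped, as did those of siNT 24 h and siELMO1 24 h. RBL1 had the same order, from 95.9 to 33.7 CPM, and only its Mock 24 h and siNT 0 h ranges overlapped. E2F8 had Mock cells at both times on top (23.9 and 20.6 CPM), both siNT groups and siELMO1 24 h together between 9.35 and 11.5 CPM, and siELMO1 0 h at 4.39 CPM. For E2F2 no neighbouring groups overlapped, though Mock and siNT cells at 24 h nearly met, and means ran from 13.0 CPM in siNT to 1.79 CPM in siELMO1 cells at 0 h. For E2F7 siELMO1 0 h and siNT 0 h came first (both 217 CPM) and Mock 24 h last (137 CPM), and for E2F4 the 3 groups at 24 h came first. In E2F3 and E2F5 most neighbouring groups overlapped.

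The partners of the set were read from lists of known function, which like the members were chosen with earlier results known, and their counts at 0 h stand beside 31.3% lower and 31.3% higher among all genes against siNT and 22.4% and 27.9% against Mock cells. The DP partners TFDP1 and TFDP2 were at log2 -0.031 and -0.17 in siELMO1 against siNT cells at 0 h, neither called, while both were lower than in Mock cells (log2 -0.63 and -0.46). Of 7 genes of the MuvB core and its partners, which form the DREAM complex with RBL1 or RBL2 and E2F4 and later act with MYBL2 and FOXM1, 5 were lower and 1 higher than in siNT cells, with a median log2 of -0.89 where all genes had 0.00093. FOXM1, which drives mitotic genes, was lowest (log2 -1.52, adjusted p = 2.1e-11, edgeR), and RBBP4, a histone chaperone, was the one higher (log2 0.17, adjusted p = 0.0138). Of the cyclins and kinases that phosphorylate RB proteins 7 of 8 were tested, CCND2 falling under the filter. Of these 5 were lower and 2 higher than in siNT cells: CCND1 (cyclin D1) was at log2 -2.22 (adjusted p = 1.1e-15), CCNE1 (cyclin E1) at 0.26 (adjusted p = 0.0208) and CDK6 at 0.21 (adjusted p = 0.0150). CCND1 averaged 999 CPM in Mock cells, 2413 CPM in siNT cells and 518 CPM in siELMO1 cells at 0 h, so siNT cells lay above both other groups.

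CDK inhibitors keep these kinases off and so keep RB proteins bound to E2F. In siELMO1 cells at 0 h 4 of 4 tested inhibitors (7 on the list) were lower than in siNT cells, from log2 -2.19 for CDKN2C (p18) to -0.78 for CDKN1A (p21). Against Mock cells 2 were lower and 1 higher, CDKN1A being at log2 0.16 (adjusted p = 0.00457, edgeR) and CDKN1B (p27) at -0.039 (adjusted p = 0.554). Among 8 partners of E2F6 in its Polycomb complex 2 were lower and 1 higher than in siNT cells, no more than the share among all genes. Against Mock cells 2 were lower and 4 higher, beside 22.4% and 27.9% of all genes. In siNT against Mock cells at 0 h 1 was lower and 4 higher, beside 24% and 27.6%. CBX3, a reader of methylated histone H3, was at log2 -1.79 (adjusted p = 2.0e-13) and MAX, a partner of MGA and MYC, at 0.63 (adjusted p = 1.6e-06), both alike against Mock cells (log2 -1.61 and 0.70).

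Target genes of E2F at the G1/S transition were lower in siELMO1 cells at 0 h, as were E2F1, E2F2 and E2F8. Of 23 genes, 21 were lower and 1 higher in siELMO1 than in siNT cells at 0 h (median log2 -1.25), and 22 lower and 0 higher than in Mock cells (median log2 -1.64, all genes 0.041). The lowest against siNT cells was CCNA2 (cyclin A2, log2 -2.27, adjusted p = 1.7e-13, edgeR). CCNE1 was the one higher (log2 0.26) and was not called against Mock cells (log2 -0.16, adjusted p = 0.168), whereas CCNE2 was at log2 -1.67 against siNT and -1.87 against Mock cells. siNT cells too had 18 of 23 lower than Mock cells (median log2 -0.33) and 1 higher, CCNA2 at 0.25, beside 24% and 27.6% of all genes. At 24 h 6 were higher and 5 lower in siELMO1 than in siNT cells (median log2 -0.017), near the 26% and 26.5% of all genes. Against Mock cells 21 were lower and 0 higher (median -0.54), beside 22% and 21.6% of all genes. With poly(I:C) 21 rose and 1 fell in siELMO1 cells (median log2 0.91), beside 28% higher and 26.9% lower among all genes. In Mock cells 0 rose and 15 fell (median -0.33), beside 30.7% and 29.6%. In siNT cells 1 rose and 19 fell (median -0.47), beside 28.6% and 25.2%.

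**Figure D5:**
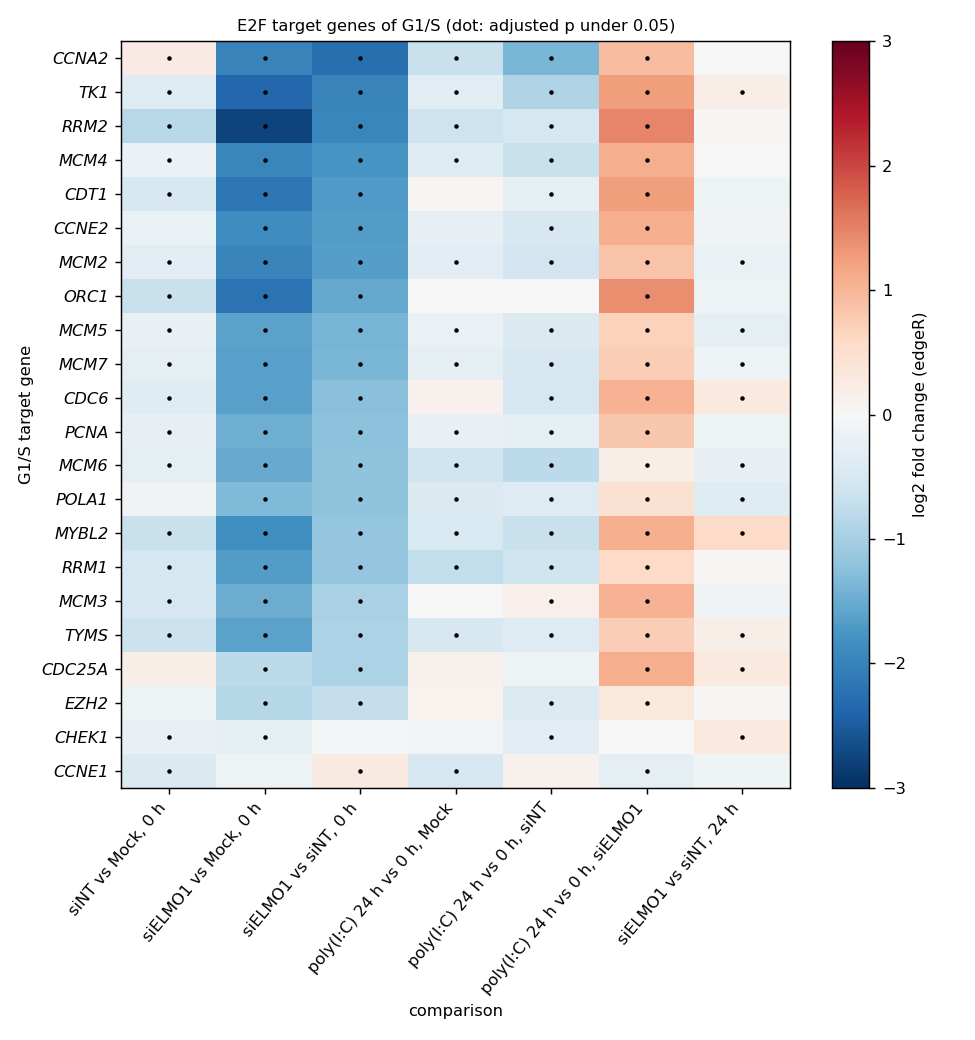
Log2 fold change (colour, edgeR, blue lower and red higher, scale from -3 to 3) of 22 of the 23 E2F target genes of G1/S (rows, ordered by siELMO1 against siNT at 0 h) in 7 comparisons (columns); dots mark an adjusted p under 0.05. Both siELMO1 columns at 0 h are blue for nearly all genes, the poly(I:C) column of siELMO1 cells is red for 20 of the called genes, and the column at 24 h is pale.

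Transcripts were read from the transcript matrix by identifier. E2F1 had a single transcript. E2F3, known for an upstream and a downstream promoter that give distinct proteins, had transcripts from start sites 1800 bases apart. The upstream one (ENST00000346618.8, start at chr6:20401879) averaged 7.98 ± 1.88 TPM in Mock, 8.85 ± 3.51 TPM in siNT and 4.64 ± 0.966 TPM in siELMO1 cells at 0 h, and the downstream one (ENST00000535432.2, start at chr6:20403679) 7.69 ± 2.57, 9.77 ± 4.00 and 10.9 ± 2.28 TPM. The upstream share was 36.9% to 65.7% in Mock, 25.2% to 60.8% in siNT and 21.0% to 38.0% in siELMO1 cells, so the ranges overlapped, and the spread between libraries was too wide to part the groups. At 24 h the mean share was 42.6% in Mock, 41.9% in siNT and 43.2% in siELMO1 cells. The split between these transcripts is StringTie's estimate from reads that they mostly share, and it was not tested.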

How the data were processed

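Total RNA of EA.hy926 cells was sequenced from stranded mRNA libraries as paired reads of 100 bp. According to the study's methods and the submitters' processing notes, the deposited estimated counts, whole numbers per gene and per transcript with no scaling, were made by the authors with STAR (reads left untrimmed, build GRCh38) and StringTie with its count script on GENCODE 44. Versions of these tools are not given in the sources used here. Estimated counts move with the read length and transcript models assumed.

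Genes with at least 100 counts in total and at least 1 CPM in 1 library were kept. All 18 libraries were fitted together by group in edgeR 4.0.16 (R 4.3.3) with TMM factors and the quasi-likelihood test, Benjamini-Hochberg adjustment over 15167 genes and no block, after the scripts were tested on simulated data. The SE is the log2 fold change over the root of F. The 95% intervals use a normal quantile of this SE and so run narrower than the F test implies, and calls rest on the adjusted p alone. Alternatives were DESeq2 1.42.0, limma 3.58.1 (voom), other scalings, filters and sample sets, a replicate block and each library left out. TPM used exon lengths of GENCODE 44. Replicate numbers did not pair the libraries. Named genes were every member, RBL2, ELMO1, the highest and lowest of each list against siNT at 0 h with up to 3 called against the rest of the list, and for likeness 3 genes per member, some of which are not reported here. The text also names CCNE2, CDKN1B and CCND2, and CCNA2 in siNT against Mock, chosen after their values were seen. The members and lists were chosen with earlier results of these data known. No protein sequence was used here.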

Additional observations from a re-analysis of the deposited data

Results flagged for a closer look

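The response to poly(I:C), 24 h against 0 h, differed between transfections in 15 tests of the difference itself (interaction contrasts in edgeR, log2 scale, Benjamini-Hochberg adjusted p under 0.05). Between siELMO1 and siNT cells the difference was 2.14 for E2F2, 1.36 for E2F1, 1.21 for E2F8, 0.71 for RBL1, 0.48 for E2F6 and 0.23 for RB1, each positive, so the level moved further up or less far down in siELMO1 cells. Between siELMO1 and Mock cells it was 1.79 for E2F2, 1.51 for E2F1, 1.31 for E2F8 and 0.96 for RBL1. E2F1, E2F2 and RBL1 had opposite signs in the groups compared, since they fell in Mock and siNT cells and rose in siELMO1 cells, where they started from their lowest level. The part of cell death, which the study reports for siNT cells after poly(I:C), in the differences from siNT cells was not tested. E2F2, E2F1, E2F8 and RBL1 remained called with any 1 library left out and with siELMO1 at 0 h represented by replicate 1 alone.

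Between siNT and Mock cells the difference was -0.92 for E2F5, -0.35 for E2F6, -0.29 for RB1, -0.27 for E2F3 and 0.25 for RBL1. The E2F5 call (adjusted p = 0.0396) was lost when any 1 of 9 libraries was left out, with values from -0.95 to -0.79, and E2F5 was counted in 55 to 136 reads' worth of signal per library. The E2F6 call (adjusted p = 0.0357) was lost without any 1 of 8 libraries (values from -0.34 to -0.25), the E2F3 call without Mock replicate 2 at 0 h or Mock replicate 1 at 24 h (-0.21 and -0.20) and the RB1 call without Mock replicate 1 at 24 h (-0.21). The RB1 call between siELMO1 and siNT cells (adjusted p = 0.0453) was lost without any 1 of 12 libraries. Of those, siELMO1 replicate 3 at 24 h moved the value from 0.23 to 0.15.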

How the results depend on the processing

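Over 12 comparisons and 11 genes (RBL2 included), no called value changed sign under any alternative run. Leaving out a library gave 62 lost and 15 gained calls of 2376 values, the other alternatives 43 and 15. The number of members called in the response of siNT minus that of Mock fell from 5 to 1 under library totals and under no filter, and no other count moved by over 1.5 times except when a library was left out, where it was 1 to 5 for the same comparison. Leave-one-out counts were 5 to 7 (siELMO1 against Mock) and 7 to 8 (against siNT) at 0 h, 5 to 7 and 4 to 5 at 24 h, 6 to 10, 5 and 7 to 8 for poly(I:C) in Mock, siNT and siELMO1, 7 to 8 and 4 to 5 for siNT against Mock at 0 h and 24 h, and 5 to 6 and 4 to 6 for the response of siELMO1 minus siNT and minus Mock. The activator minus repressor difference between siELMO1 and Mock at 0 h was -1.33, with -2.18 without E2F3, -1.96 against E2F4 and E2F5 alone and -0.66 against E2F7 and E2F8 alone; against siNT it was -1.01, with -1.60, -1.37 and -0.81. Leave-one-out ranges were -1.41 to -1.22 and -1.10 to -0.90. The upstream E2F3 share without 1 library was 44.1% to 58.5% (Mock), 41.5% to 59.2% (siNT) and 26.4% to 34.9% (siELMO1) at 0 h, and 35.3% to 46.5%, 38.8% to 46.0% and 33.0% to 51.4% at 24 h. E2F4 was called lower than in Mock at 0 h under library totals (log2 -0.15). In siNT against Mock cells at 24 h E2F2 (log2 -0.30, adjusted p = 0.0689 in edgeR) was called lower by DESeq2 (0.0440) and limma-voom (0.0388) and without siNT replicate 3 at 24 h (log2 -0.41) or siELMO1 replicate 3 at 0 h, and RB1 without Mock replicate 2 or siELMO1 replicate 3 at 24 h (-0.18 and -0.13). E2F5 in the response of siELMO1 minus Mock was called with the replicate block (log2 -0.86, adjusted p = 0.0295 against 0.0626 unblocked, edgeR), by limma-voom (log2 -0.90) and without siELMO1 replicate 3 at 24 h (-1.05), and E2F3 without Mock replicate 2 (-0.26) or siELMO1 replicate 3 at 24 h (-0.24). The replicate block changed no other member's call: deviations of same-numbered libraries correlated at a median of 0.036 over 45 pairs. Under library totals the share of higher genes among those called went from 55.5% to 43.9% (siELMO1 against Mock, 0 h), 50.9% to 37.9% (poly(I:C) in Mock), 48.6% to 60.4% and 48.3% to 64.8% (responses of siELMO1 and siNT minus Mock). Depth limits E2F5 most. The causes were not tested.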

Other observations

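Likeness of pattern was measured as Pearson's r of log2 CPM over the 18 libraries among genes outside the set with a mean of at least 5 CPM. It is a description: the libraries fall into 6 groups, and all genes share each library's depth and scaling. Among the 3 genes most like E2F1 were GINS4 (r = 0.982), a subunit of the replicative helicase, and UNG (0.974), which removes uracil from DNA. For E2F2 the 3 genes were DNAJC9 (0.989), a histone chaperone, CENPM (0.987), a centromere protein, and CDC20 (0.986), an activator of the anaphase-promoting complex. For E2F8 they were CHAF1B (0.990), a subunit of chromatin assembly factor 1, TACC3 (0.978), a spindle protein, and ZWINT (0.978), a kinetochore protein. Those near RBL1 included NSD2 (0.985) and TEX261 (0.981).

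E2F4 was nearest to MSX1 (0.962), ABTB2 (0.961) and AKR1B1 (0.956), and E2F7 to HEATR5B (0.963), ERG28 (0.960) and VAPB (0.955). The genes near E2F6 included MOB1A (0.955) and ALDH9A1 (0.950), and E2F3 was nearest to SIRT6 (0.927), RC3H2 (0.910) and PIP4P1 (0.906). RB1 (KCTD9, 0.892, RAP2C, 0.868, and FNTA, 0.863) and E2F5 (SCNM1, 0.896, ACBD5, 0.841, and DHX8, 0.837) had no gene above 0.9. RBL2 was nearest to CLEC14A (0.971), PCMTD2 (0.971) and GALNT13 (0.969). CLEC14A, an endothelial surface lectin, averaged 185 CPM in siELMO1, 18.8 CPM in siNT and 113 CPM in Mock cells at 0 h. Within the set r was 0.977 between E2F1 and RBL1, 0.932 between E2F1 and E2F8 and 0.879 between E2F1 and E2F2, against -0.47 between E2F1 and E2F7.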
